A study of Mus musculus with 90 samples.

Results

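The genes described here encode neuropeptide precursors and were followed through mouse hippocampus, cortex and choroid plexus: Npy, Sst, Vip, Cck, Crh, Tac1, Penk, Pdyn and Cort. They were taken by name from the deposited table, and all 9 were found among its 19962 genes. On GRCm38.p6 they lie at chr6:49822710-49829507 (Npy), chr16:23889573-23891342 (Sst), chr10:5639193-5647617 (Vip), chr9:121489824-121495694 (Cck), chr3:19693401-19695396 (Crh), chr6:7555061-7562978 (Tac1), chr4:4133536-4138815 (Penk), chr2:129686549-129699938 (Pdyn) and chr4:149125034-149126763 (Cort). Cck overlaps the annotated gene Gm38661 and Crh overlaps Gm42189, and the other 7 overlap no annotated gene.

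Neuropeptides are short signalling peptides that are cut from longer precursor proteins by convertases, stored in dense core vesicles and released to act on G protein-coupled receptors. In the forebrain several of these genes mark classes of inhibitory interneurons. Somatostatin (Sst) and neuropeptide Y (Npy) are made by overlapping classes, vasoactive intestinal peptide (Vip) by interneurons that often contact other interneurons, and cholecystokinin (Cck) by basket cells as well as by many pyramidal cells. Cortistatin (Cort) is a relative of somatostatin that binds the same receptors. Proenkephalin (Penk) and prodynorphin (Pdyn) are opioid precursors, Tac1 encodes substance P and neurokinin A, and corticotropin-releasing hormone (Crh) drives the hormonal stress response and also acts within the forebrain.

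Somatostatin and several other neuropeptide genes are textbook targets of CREB, a factor that binds the cyclic AMP response element, or CRE, whose full form is TGACGTCA and whose core is TGACG. The stretches shown are the 100 bases just before the transcript start that the RefSeq promoter table gives for 6 members on GRCm38.p6, chosen to compare the start regions of the interneuron genes and of Cck and Tac1. They are printed 5′ to 3′ on the gene's strand, with matches to the full element, or failing that to its core on either strand, in capitals.
Sst: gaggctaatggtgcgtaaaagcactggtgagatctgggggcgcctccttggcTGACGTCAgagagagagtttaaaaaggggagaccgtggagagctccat
Cort: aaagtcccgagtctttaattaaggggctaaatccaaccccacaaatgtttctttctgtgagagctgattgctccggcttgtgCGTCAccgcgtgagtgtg
Vip: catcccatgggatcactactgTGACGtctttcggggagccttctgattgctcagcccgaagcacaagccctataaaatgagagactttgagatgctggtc
Cck: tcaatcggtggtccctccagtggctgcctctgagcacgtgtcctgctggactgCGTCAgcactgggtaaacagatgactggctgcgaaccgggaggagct
Tac1: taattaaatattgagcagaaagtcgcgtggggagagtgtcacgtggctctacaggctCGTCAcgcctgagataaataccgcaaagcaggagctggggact
Npy: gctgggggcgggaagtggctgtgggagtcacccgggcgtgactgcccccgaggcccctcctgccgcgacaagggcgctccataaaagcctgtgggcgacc
These lie at chr16:23890845-23890944 (minus strand) for Sst, chr4:149126764-149126863 (minus) for Cort, chr10:5639118-5639217 (plus) for Vip, chr9:121495695-121495794 (minus) for Cck, chr6:7554961-7555060 (plus) for Tac1 and chr6:49822610-49822709 (plus) for Npy. For Sst and Vip the start in that table lies inside the gene span given above rather than at its edge, so their stretches fall wholly (Sst) or partly (Vip) within the span. Within 250 bases before the start in that table, the core in either direction was present in 5 of the 7 members in the promoter table and in 17.8% of its 32851 promoters. Those 5 are all shown above, whereas Pdyn, which like Npy lacked the core, is not. Penk and Crh have no entry in that table, so their promoters were not examined. The full element, which holds the core on both strands, was present in 1 of the 7, Sst, and in 1.55% of all promoters. A member was counted if any of its entries in that table held the match, whereas both percentages are over single entries. These matches describe letters only.

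RNA was measured with GeoMx Digital Spatial Profiling, which hybridises tagged probes to a section, frees the tags of a chosen area of interest (AOI) with light, and counts them by sequencing. The samples were AOIs from 6 mice of the chronic social stress (CSS) group and 4 control (ctrl) mice, placed in matching areas of the choroid plexus (CP), the hippocampal fields CA3 and CA1, the motor cortex (MC) and the somatosensory cortex (SS), and labelled p16 high (46 AOIs) or p16 low (44 AOIs). The sources used here give no strain, age, sex or stress protocol, nor the way p16 status was assigned, and the labels name no transgene or allele. Of 100 possible AOIs 90 were analysed: 18 in CA3, 18 in CA1, 19 in MC, 19 in SS and 16 in CP, with no CP AOI of CSS mouse 1169.

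Recovered probe counts totalled 184469 to 2098984 per AOI, and the negative control probe, which matches no mouse transcript and gauges background, had a signal of 10.8 to 18.1. The CA1, CA3 and CP labels held up against marker sums: 5 CA1 pyramidal markers summed to 1035 to 2432 in CA1 AOIs against 101 to 284 in CA3 AOIs, 5 CA3 pyramidal markers to 433 to 1151 in CA3 against 108 to 164 in CA1, and 7 choroid plexus epithelial markers to 57140 or more in CP against 742 or less elsewhere. The sum of 6 cortical layer markers did not mark cortex. Its median was 185 in MC and 183 in SS, against 263 in CA1, 179 in CA3 and 187 in CP. The MC and SS labels were therefore not checked by these sums. Cdkn2a, which encodes p16, was higher in the p16 high AOI in 21 of 41 pairs of the same mouse and subregion, with a mean signal of 22.3 ± 4.96 in AOIs labelled p16 high and 23.1 ± 10.03 in those labelled low (SD, 41 each), so its RNA did not separate the labels. The CA3 AOIs of control mouse 1175 included the lowest sum of CA3 markers and gave the lowest Cck in CA3, and leaving them out changed no call of a member. In what follows a signal is the deposited value, scaled by the authors to 1 median for every AOI, and values are given per mouse after averaging its AOIs. Counts of mice with a higher or lower member are taken on the log2 scale. Signals of different genes come from different probes and are not compared with each other.

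Cck and Penk varied most sharply between subregions, in different ways. Cck had a lowest, median and highest signal per mouse of 384, 738 and 899 in CA3, 471, 666 and 873 in CA1, 119, 171 and 253 in MC, and 116, 182 and 229 in SS. In CP, its 9 mice had 9.81, 17.8 and 23.6, near the negative probe signal. No hippocampal value of a mouse fell to the range of either cortical area. The hippocampal mean, taken over CA3 and CA1, was 686.5 ± 129.6 against 177 ± 33.8 in cortex (SD, 10 mice), 3.87 times as high, with a log2 fold change of 1.95 (SE 0.07, limma adjusted p = 1.09e-22), and higher in 10 of 10 mice. Between CA3 and CA1 themselves Cck differed by -0.034 on the log2 scale (95% interval -0.21 to 0.15), and between MC and SS by -0.042 (SE 0.08). Subregion accounted for 86.7% of the variance of Cck over the 74 AOIs of hippocampus and cortex.

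**Figure D1:**
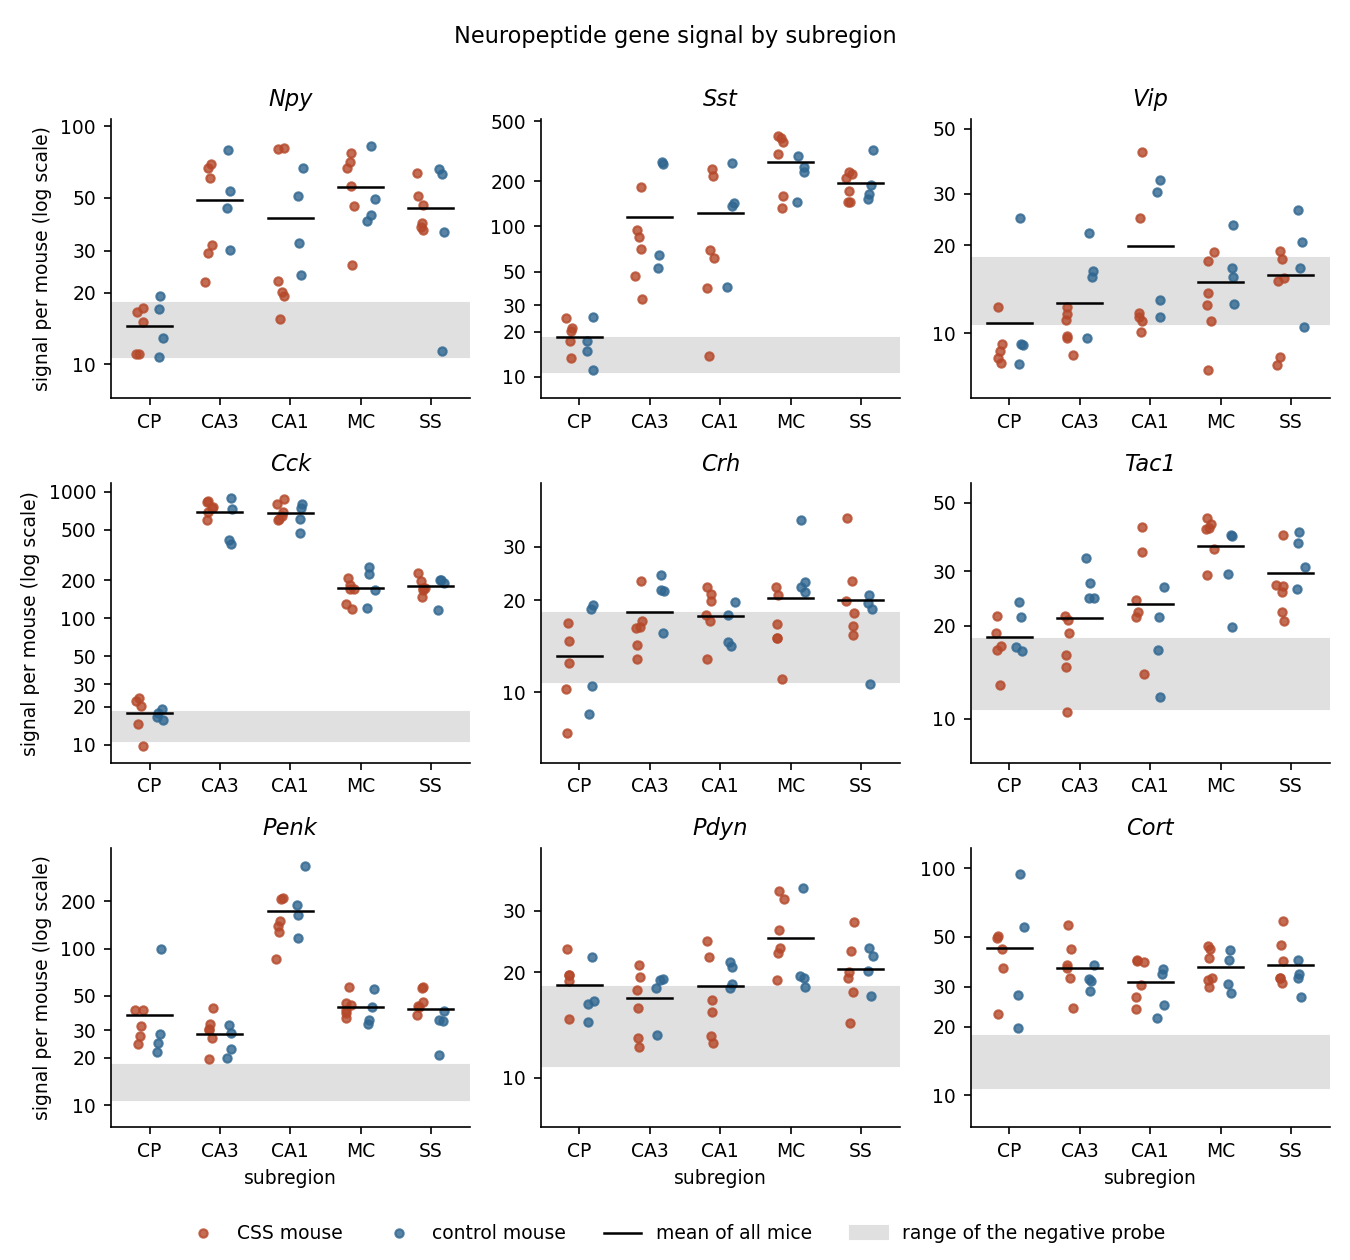
Signal of each neuropeptide gene per mouse (log scale) in CP, CA3, CA1, MC and SS, with 1 point per mouse (CSS left, control right), the mean of all mice as a line and the range of the negative probe over all AOIs shaded. Cck stands at 384 or more in every mouse in CA3 and CA1 and at 253 or less in MC and SS, Penk is higher in CA1 than in CA3 in every mouse, and the CP points of Npy, Sst, Vip and Cck lie near the shaded band.

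Penk was the member that told CA3 and CA1 apart. Its lowest, median and highest signal per mouse was 19.8, 29.5 and 41.7 in CA3 against 85.5, 156 and 339 in CA1, so that the fields did not overlap. The mean was 28.7 ± 6.67 in CA3 and 173 ± 70.8 in CA1 (SD, 10 mice), a level 6.03 times as high in CA1, with a log2 fold change of -2.48 for CA3 over CA1 (SE 0.13, limma adjusted p = 2.51e-16). It was lower in CA3 in 10 of 10 mice, and the exact sign-flip p of 0.00195 was the smallest that 10 mice allow. In MC and SS Penk ran at 33.2, 41.2 and 56.9, and at 21.0, 40.9 and 57.0. CA3 lay below MC (log2 -0.57, SE 0.11, adjusted p = 7.98e-05, lower in 10 of 10 mice), whereas CA1 lay above MC (log2 1.91, SE 0.12, adjusted p = 7.49e-14). The higher hippocampal mean of Penk against cortex (log2 0.71, SE 0.09, adjusted p = 2.34e-08) therefore averages fields on opposite sides of the cortical level, and under quantile normalization it was 0.18 (adjusted p = 0.104).

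Of the 9 members, Penk alone was called between CA3 and CA1, in a comparison that called 17.7% of all genes, 5.04% higher and 12.7% lower in CA3. Vip came next, with 12.6 ± 4.196 in CA3 against 19.8 ± 11.7 in CA1 (SD, 10 mice) and a log2 difference of -0.45 (SE 0.20, limma adjusted p = 0.118), but it passed with quantile normalization (adjusted p = 0.0395), with scaling to the negative probe (0.0343) and with edgeR on recovered counts (0.0124). Only 5 of 18 CA3 AOIs and 9 of 18 CA1 AOIs had Vip above their negative probe. Cort passed with scaling to the 75th percentile alone (log2 0.35, adjusted p = 0.0489).

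Sst was lower in the hippocampus than in cortex, on the log2 scale in every mouse. Its lowest, median and highest signal per mouse was 32.9, 77.8 and 267 in CA3 and 13.8, 103 and 265 in CA1, against 133, 269 and 400 in MC and 144, 180 and 322 in SS. The ranges of single subregions overlapped, but within each mouse the hippocampal mean of log2 values lay below the cortical one. This did not hold for every mouse in mean signal: mouse 1151 had 136 in CA1 and 260 in CA3, against 229 in MC and 163 in SS. The mean signal was 119 ± 57.4 in hippocampus and 231 ± 66.8 in cortex (SD, 10 mice), with a log2 fold change of -1.41 (SE 0.14, limma adjusted p = 8.38e-11). CA3 and CA1 did not differ in Sst beyond their spread (log2 0.21, SE 0.33, adjusted p = 0.748).

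Tac1 was also lower in hippocampus, at 22.3 ± 4.30 against 32.9 ± 5.48 in cortex (SD, 10 mice). It was lower in 9 of 10 mice on the log2 scale, with a log2 fold change of -0.60 (SE 0.10, limma adjusted p = 1.93e-06). Pdyn was lower by a smaller step, 17.6 ± 2.47 in hippocampus against 22.7 ± 4.65 in cortex, lower in 9 of 10 mice (log2 -0.33, SE 0.10, adjusted p = 0.00534). This Pdyn difference was -0.099 when signals were scaled to the negative probe (adjusted p = 0.469). Pdyn is a marker of dentate granule cells, and 6 other dentate granule cell markers were also all below 0 in hippocampus against cortex, 2 of them called lower and none higher, with a median log2 fold change of -0.25 against -0.031 over all genes. They summed to 62.8 to 158 in the AOIs of CA3 and CA1, against 77.2 to 143 in MC and SS. These markers were near background: 2 to 3 of the 6 had a mean at or below the negative probe in each of these subregions. Their sum was highest in CP, with a median of 148, against 86.7 in CA1 and 103 in SS. The part of dentate tissue in these values was not tested.

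In all, 5 members were called between hippocampus and cortex, Cck and Penk higher and Sst, Tac1 and Pdyn lower. The comparison called 51.1% of all genes, 34.4% higher and 16.7% lower in hippocampus, so a share of 5 in 9 lies near the background. Its balance depended on scaling: 67.3% of called genes were higher in hippocampus as deposited, 53.7% with quantile normalization, 23.1% with scaling to the 75th percentile, 96.5% with scaling to the negative probe and 39.9% with edgeR. The median log2 fold change of all genes was -0.031 as deposited and -0.37 with the 75th percentile. The 5 members called kept their sign under every setting tried. Npy was not called as deposited, with 45.0 ± 13.4 in hippocampus and 50.4 ± 12.4 in cortex (log2 -0.28, SE 0.12, adjusted p = 0.0567), but was called under 7 other settings, among them edgeR (-0.35, adjusted p = 0.000363) and leaving out mouse 1151 (-0.44, adjusted p = 0.000325) or 1169 (-0.36, adjusted p = 0.0189). Crh and Cort, at log2 -0.094 (SE 0.11) and -0.14 (SE 0.07), were called lower by edgeR and with the 75th percentile, and Cort also with quantile normalization (-0.43, adjusted p = 3.78e-06) and without mouse 1163 (-0.17, adjusted p = 0.0454).

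Between MC and SS no member was called, nor was any of the 19962 genes (0%), although 1100 genes had an unadjusted limma p under 0.05 and edgeR called 14 genes, none of them a member. Sst averaged 266 ± 99.8 in MC against 195 ± 54.5 in SS (SD, 10 mice), a log2 difference of 0.39 (SE 0.12, adjusted p = 0.796) that was positive in 7 of 10 mice. Tac1 (log2 0.28, SE 0.11, positive in 9 of 10 mice) and Pdyn (0.24, SE 0.11) were the other members with an unadjusted p under 0.05.

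The choroid plexus is a secretory epithelium without neurons, and most members were near background there. The 8 excitatory neuron markers summed to 151 to 228 in CP AOIs. However, 7 markers listed for striatal projection neurons summed to 647 to 1274 in CP, against medians of 170 to 231 in the other subregions. The source of that sum, and its part in the CP values of the members, was not tested. In CP, signals were above the negative probe of their AOI in 6 of 16 AOIs for Npy, 1 of 16 for Vip, 6 of 16 for Crh, 11 of 16 for Sst and for Pdyn, 13 of 16 for Cck, 15 of 16 for Tac1 and 16 of 16 for Penk and Cort. Against the mean of the other subregions in 9 mice, 7 members were lower and none higher, in a comparison that called 40.2% of all genes, 19.6% lower. Cck had 17.8 ± 4.18 in CP against 435 ± 81.3 elsewhere (SD, 9 mice; log2 -4.28, SE 0.13, limma adjusted p = 5.86e-16), and was lower in 9 of 9 mice. Sst had 18.3 ± 4.83 against 179 ± 41.8 (log2 -2.81, SE 0.17, adjusted p = 1.98e-11) and Npy 14.5 ± 3.20 against 47.7 ± 10.5 (log2 -1.47, SE 0.12, adjusted p = 3.38e-09), both lower in 9 of 9. Penk, Crh, Tac1 and Vip were lower by 0.43 to 0.68 on the log2 scale. Vip, at log2 -0.43 (SE 0.15, adjusted p = 0.0273), lost its call without the mouse as a block, with scaling to the negative probe, and on leaving out mouse 1151, 1152, 1157, 1168 or 1175 (adjusted p = 0.0617 to 0.157), and Crh lost its call when only matching p16 labels were used (-0.38, adjusted p = 0.0807). CP signals of Vip, Npy and Crh averaged 0.7496, 1.05 and 0.968 times the negative probe. The CP side of their differences was therefore background rather than a measured level. On the other side, Npy was above its negative probe in 73 of the 74 AOIs of hippocampus and cortex, Crh in 56 and Vip in 31. The Vip difference thus set values mostly within background against background. The part of background in the Vip and Crh differences was not tested. In such bulk areas fewer cells of a type and less RNA per cell cannot be told apart.

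Pdyn and Cort were the 2 members not called in CP. Cort was measured above background in all 90 AOIs and was nearly level over the brain, with means of 44.4 ± 22.7 in CP (9 mice), 36.2 ± 8.87 in CA3, 31.5 ± 6.70 in CA1, 36.6 ± 6.57 in MC and 37.4 ± 9.07 in SS (SD, 10 mice each). In CP, control mouse 1151 was highest at 94.7, with the next mouse at 55.2. CP over the rest gave a log2 difference of 0.20 (SE 0.15, adjusted p = 0.329). Unlike Sst, whose subregion share of variance was 33.6%, Cort owed 8.88% of its variance to subregion and 35.4% to the mouse. In CP, 11 of 16 inhibitory neuron markers were lower than elsewhere, beside 19.6% of all genes. The source of the Cort signal there was not tested.

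The order of subregions for each member follows from these tests. For Cck it was CA3 and CA1, not told apart, then SS and MC, not told apart, then CP. For Penk CA1 stood first, then MC, SS and CP at 42.6, 41.1 and 37.7, then CA3 at 28.7. CP was below MC (log2 -0.36, adjusted p = 0.0399), whereas CP did not differ from SS beyond their spread (adjusted p = 0.358), nor CA3 from CP (adjusted p = 0.496). For Sst it was MC and SS, then CA1 and CA3, then CP. For Npy only CP stood below all the others, with CA1 also below MC (log2 -0.60, adjusted p = 0.0354). For Tac1 it was MC and SS, then CA1, CA3 and CP, among which no pair passed. Between their highest and lowest subregion, Tac1 spanned 1.96 times, Vip 1.84, Crh 1.54, Pdyn 1.48 and Cort 1.41 times.

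The machinery that makes and reads neuropeptides was described from lists of genes known for these roles. Of 13 genes for precursor processing and dense core vesicles, 10 were higher in hippocampus than in cortex and 1 lower, beside the 34.4% and 16.7% of all genes given above, with a median log2 fold change of 0.71 against -0.031 over all genes. Of 8 excitatory neuron markers, 5 were higher and 2 lower in that comparison, with a median of 1.11. The part of neuron content in these values and in those of Cck was not tested. Chgb (chromogranin B) had a mean signal of 979 in hippocampus and 231 in cortex (log2 1.83, SE 0.08, limma adjusted p = 7.75e-21), and Cpe (carboxypeptidase E) 1317 against 486.5 (1.42, SE 0.08). All 13 were lower in CP (median -2.48), where 19.6% of all genes were called lower, and Cpe was lower by 3.94. Between CA3 and CA1, 6 of the 13 were higher and 3 lower, against 5.04% of all genes higher and 12.7% lower. Chgb was higher in CA3 (1.71, SE 0.07), whereas Cadps2 (-2.26, SE 0.12) and the secretogranin gene Scg2 (-1.46, SE 0.09) were lower there. The sum over the 13 had a median of 4645 in CA3 and 3116 in CA1 AOIs.

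Of 22 receptor genes, 4 were higher and 10 lower in hippocampus than in cortex, where 34.4% of all genes were called higher and 16.7% lower. Npy2r, a neuropeptide Y receptor, was higher at 76.0 against 24.5 in cortex (log2 1.54, SE 0.08, limma adjusted p = 2.02e-18), and Sstr4, a somatostatin receptor, at 134 against 38.9 (1.36, SE 0.07, adjusted p = 7.74e-18). Cckbr, the main brain cholecystokinin receptor, ran the other way to Cck, at 26.9 in hippocampus against 49.1 in cortex (-0.92, SE 0.10), and Sstr2 was also lower (-0.82, SE 0.10). Between CA3 and CA1, 4 receptors were higher and 3 lower, against 5.04% of all genes higher and 12.7% lower. Sstr4 had 50.5 in CA3 against 217 in CA1 (-2.16, SE 0.09, adjusted p = 5.17e-18), Oprd1, the delta opioid receptor that binds enkephalins, was lower in CA3 like Penk (14.5 against 23.1, -0.66, SE 0.17, adjusted p = 0.00548), and Npy2r was higher in CA3 (95.2 against 56.8, 0.72, SE 0.11). The Oprd1 mean in CA3 lies within the negative probe range of CA3 AOIs, 11.8 to 17.2. The part of background in its difference was not tested. In CP, where 19.6% of all genes were lower and 20.6% higher, 12 receptors were lower and 1 higher, the corticotropin-releasing hormone receptor Crhr2 (59.8 in CP against 19.3 elsewhere, 1.63, SE 0.09, adjusted p = 4.50e-12).

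Of 23 other neuropeptide genes, 6 were lower and none higher in hippocampus than in cortex, against 16.7% of all genes lower and 34.4% higher. Their median log2 fold change was -0.19, with 18 of 23 below 0, against -0.031 over all genes. Among the 6 were Adcyap1 (11.4 against 19.1, log2 -0.66, SE 0.12, limma adjusted p = 2.68e-05) and Grp (20.5 against 27.1, -0.45, SE 0.11). In each subregion 4 to 7 of the 23 had a mean at or below the negative probe. The negative probe itself ran from 10.8 to 17.2 in AOIs of CA1 and CA3 and from 11.9 to 18.1 in those of MC and SS. Both Adcyap1 means lie near it, and the part of background in these differences was not tested. Of 7 genes for peptide binding and degradation, Crhbp, which binds corticotropin-releasing hormone, was lower in CA3 than in CA1 (24.8 against 44.4, -0.74, SE 0.19, adjusted p = 0.00535) and lower in CP than elsewhere (-0.73, SE 0.14).

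Within a subregion, members differed in how much they varied from AOI to AOI. The SD of Sst on the log2 scale, each subregion centred on its mean, was 1.04, at percentile 99.7 of 377 genes of similar mean signal, and that of Npy was 0.77, at percentile 99.9 of 2267 genes. Vip (99.8), Tac1 (99.2) and Penk (96.0) also stood high, Cort and Crh lay at 81.5 and 80.8, Cck at 69.6 and Pdyn at 27.1. Sst in single CA1 AOIs ran between 13.8 and 490, with a median of 50.5 and a coefficient of variation of 108%. In CA3 it ran between 26.0 and 426, with a median of 87.0 and a coefficient of 93.1%. In MC and SS the coefficient was 44.4% and 41.0%. These spreads include differences between mice as well as between AOIs of 1 mouse. Both p16 AOIs of 1 mouse often differed as well: for Sst in CA1 the p16 high minus low difference ran between -2.99 and 3.57 on the log2 scale over 8 mice.

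Npy and Sst varied together. Over the 74 AOIs of hippocampus and cortex, with each subregion centred on its own mean, their Pearson r was 0.64, and no other gene of above-median signal was as close to either. These points share mice and sections, and the r is a description. Next to Npy for Sst came Gad2, the GABA-synthesising enzyme of inhibitory neurons (r = 0.56), and Elfn1 (0.55). For Npy they were Tmem176b (0.51) and Rrp15 (0.49). Cort, the relative of Sst, had an r of 0.31 with Sst and 0.30 with Npy. Cck was closest to Klc2 (0.85), Ldhb (0.85) and Chchd10 (0.84), Vip to Cbwd1 (0.40), Cnr1 (0.40) and Apoc4 (0.40), and Penk to 1520401A03Rik (0.52), Nr2f6 (0.50) and Klhl13 (0.47). The nearest genes were Dph6 for Crh (0.54), Clec2d for Tac1 (0.49), Grm3 for Pdyn (0.43) and Rgs19 for Cort (0.50).

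**Figure D2:**
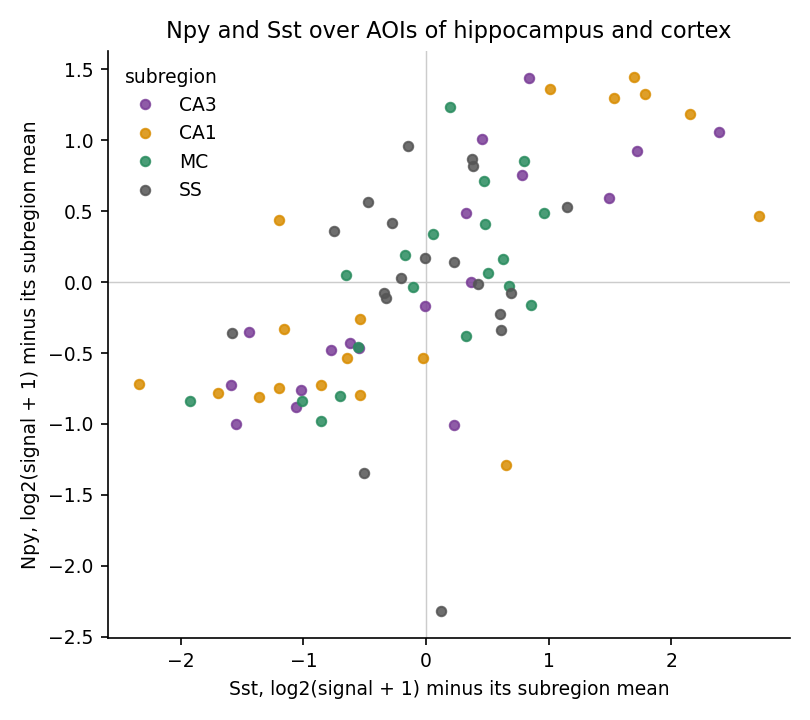
Npy against Sst in the 74 AOIs of CA3, CA1, MC and SS, each as log2(signal + 1) minus the mean of its subregion, with 1 point per AOI coloured by subregion. The points rise together with a Pearson r of 0.64, and the CA1 and CA3 points reach farthest along the Sst axis.

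Whether the peptides differed between p16 high and p16 low AOIs was asked within mice, each subregion of a mouse entering only where it had both. Over hippocampus and cortex no member was called in 10 mice, in a comparison that called 0.386% of all genes. Npy came closest, with 42.1 ± 9.71 in p16 high AOIs, against 53.7 ± 15.0 in p16 low ones (SD, 10 mice), lower in 8 of 10 mice, with a log2 difference of -0.33 (SE 0.09, limma adjusted p = 0.0922, exact sign-flip p = 0.0176). It was called by edgeR on recovered counts (-0.32, adjusted p = 0.0205) and when genes above the median alone were tested (adjusted p = 0.0478). In the same comparison 14 of 16 inhibitory neuron markers were below 0 (median log2 -0.091, none called). Of 8 excitatory neuron markers, 7 were above 0 (0.13, 1 called), against a median of 0.026 over all genes. The inhibitory markers summed to 469 to 1198 in p16 high AOIs of the paired subregions, against 471 to 1164 in p16 low ones, and their part in the Npy and Cck values was not tested. Cck was called with scaling to the negative probe alone (0.23, adjusted p = 0.0315). It had 463 ± 103 in p16 high against 399 ± 80.6 in p16 low AOIs (0.18, SE 0.06, adjusted p = 0.138), higher in 7 of 10 mice. For the other members the log2 differences ran between -0.26 and 0.12, with adjusted p of 0.310 to 0.804.

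In CA3 the p16 differences of Npy and Sst were larger in size than in CA1, MC, SS and CP, though the differences between subregions were not tested. In the 8 mice with both AOIs, Npy had a lowest, median and highest signal of 20.1, 27.5 and 63.0 in p16 high against 20.2, 64.5 and 114 in p16 low AOIs, and was lower in 6 of 8. The log2 difference was -0.88 (SE 0.21, limma adjusted p = 0.184, exact sign-flip p = 0.0469). Sst had 26.0, 45.4 and 227 in p16 high against 26.7, 107 and 426 in p16 low AOIs, also lower in 6 of 8 (-0.89, SE 0.25, adjusted p = 0.184, exact p = 0.0938). The groups overlapped for both, and in 5 of 8 mice both genes were lower together. Cck went the other way, with 419, 813 and 1230 in p16 high against 349, 630 and 728 in p16 low AOIs, higher in 7 of 8 (0.40, SE 0.13, adjusted p = 0.195, exact p = 0.0313). Pdyn was lower in 8 of 8 mice, 15.6 ± 3.41 against 20.2 ± 2.41 (SD), by 0.37 (SE 0.18, adjusted p = 0.363, exact p = 0.00781, the smallest that 8 mice allow). The negative probe was also lower in the p16 high CA3 AOI in each of these mice, between 14.9 against 15.1 (mouse 1168) and 12.2 against 14.6 (mouse 1169). Pdyn in CA3 averaged 1.21 times the negative probe, with 14 of 18 AOIs above it, and the part of background in its difference was not tested.

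None of these CA3 differences passed, nor did any gene of the 19962 (0%, with 2654 at an unadjusted p under 0.05), but the calls depended on the method and on 1 mouse. edgeR called 55 genes, among them Npy (-0.97, adjusted p = 0.0446) and Sst (-0.95, adjusted p = 0.0471). Leaving out CSS mouse 1152, which had higher Npy and Sst in its p16 high AOI, called Npy (-1.04, adjusted p = 0.00673), Sst (-1.09, adjusted p = 0.0125) and Cck (0.49, adjusted p = 0.0262). Over all paired mice, 13 of 16 inhibitory neuron markers were below 0 (median log2 -0.21), as were 6 of 6 astrocyte markers (-0.23). Of 8 excitatory neuron markers, 7 were above 0 (0.24), against a median of 0.039 over all genes, and none of these markers was called. The inhibitory markers summed to 469 to 1012 in p16 high AOIs, against 471 to 986 in p16 low ones. In mouse 1152 that sum was 472 in the p16 high AOI and 697 in the p16 low one, opposite in direction to its Npy and Sst. In mouse 1170 it was 1012 against 986. The part of these markers in the Npy, Sst and Cck values was not tested.

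**Figure D3:**
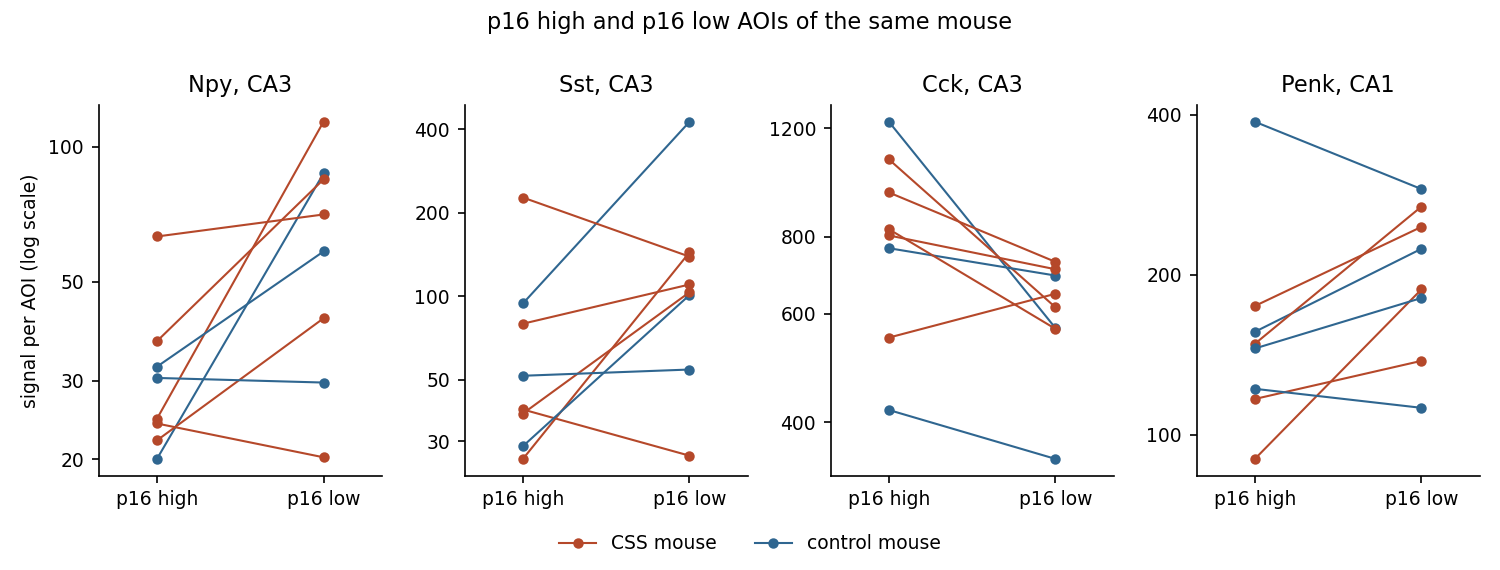
Signal per AOI (log scale) of Npy, Sst and Cck in CA3 and of Penk in CA1, in p16 high and p16 low AOIs joined by a line for each of 8 mice. Npy and Sst are lower in the p16 high AOI in 6 of 8 mice, Cck is higher in 7 of 8, and Penk is lower in 6 of 8.

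In CA1, Penk was the only member with an unadjusted p under 0.05. It had a lowest, median and highest signal of 89.96, 147 and 388 in p16 high against 112, 206 and 290 in p16 low AOIs, lower in 6 of 8 mice, with a log2 difference of -0.37 (SE 0.11, limma adjusted p = 0.126, exact p = 0.0781). No member was called in CA1, in a comparison that called 0.0902% of all genes. Penk was called with quantile normalization (-0.50, adjusted p = 0.00648), by edgeR (-0.38, adjusted p = 0.0119) and on leaving out control mouse 1182 (-0.48, adjusted p = 0.0191), whose 2 CA1 AOIs had the highest Penk signals. In MC, SS and CP no member was called and no gene was (0% in each, with 996, 898 and 1046 genes at an unadjusted limma p under 0.05). edgeR called 0, 1 and 6 genes there, with no member among them. In SS, Vip had 13.9 ± 6.45 in p16 high against 19.4 ± 6.92 in p16 low AOIs (SD, 9 mice), lower in 8 of 9 (-0.56, SE 0.22, adjusted p = 0.945).

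Between CSS and control mice no member was called in any subregion or over hippocampus and cortex, and no gene was (0% in each of the 6 comparisons, with 391 to 737 genes at an unadjusted limma p under 0.05). edgeR called 0 to 9 genes in these comparisons, none of them a member. Over hippocampus and cortex the log2 differences of the 9 members ran between -0.39 and 0.18, with a median of -0.046 against -0.0095 over all genes. The widths of the intervals set what could be seen: for Sst the 95% interval was -0.40 to 0.31, for Cck -0.41 to 0.55, for Npy -0.20 to 0.34 and for Crh -0.32 to 0.14.

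**Figure D4:**
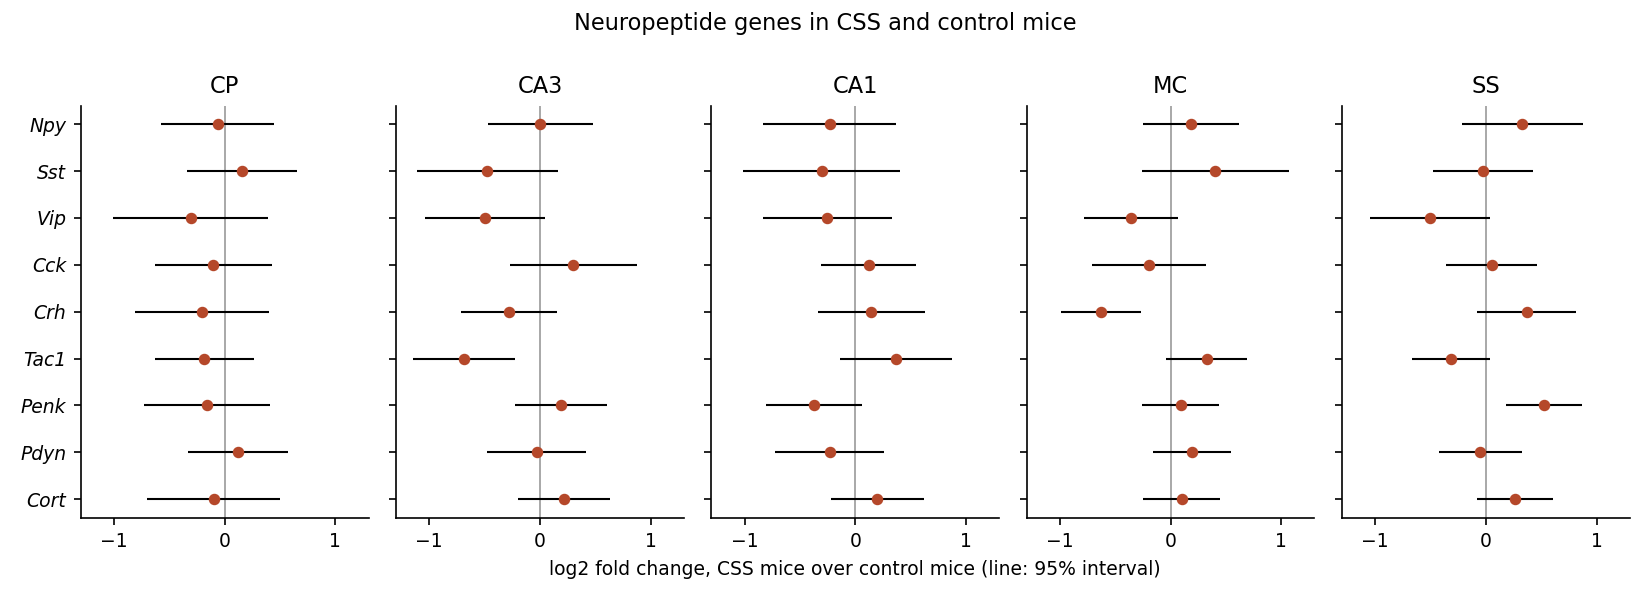
Log2 fold change of each neuropeptide gene in CSS over control mice in CP, CA3, CA1, MC and SS (points), with the 95% interval of the limma fit (lines). Intervals clear of 0 are those of Tac1 in CA3 (-0.69), Crh in MC (-0.63) and Penk in SS (0.52), none of which passed after adjustment.

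In 4 of these comparisons 1 member each had an unadjusted p under 0.05, and none passed after adjustment. Tac1 in CA3 had a lowest, median and highest signal of 10.5, 17.5 and 21.5 in CSS mice, against 24.6, 24.6, 27.6 and 33.1 in the 4 control mice, so the groups did not overlap. Its log2 difference was -0.69 (SE 0.23, limma adjusted p = 0.9998, exact permutation p = 0.0190). Crh in MC had 11.1, 15.9 and 22.07 in CSS mice, against 21.3, 22.09, 23.0 and 36.6 in controls, where the highest CSS mouse lay within the control range (-0.63, SE 0.18, adjusted p = 0.99997, exact permutation p = 0.00952). In SS, the other cortical area, Crh ran the other way, at 21.7 ± 8.06 in 6 CSS mice against 17.4 ± 4.60 in 4 controls (0.37, SE 0.22). Penk in SS had 37.9, 44.1 and 57.0 in CSS mice, against 21.0, 34.5, 34.8 and 39.7 in controls, overlapping by 1 mouse of each group (0.52, SE 0.17, adjusted p = 0.9994, exact permutation p = 0.0143).

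Vip was the member with the smallest p over hippocampus and cortex as a whole. Averaged over those subregions it was 14.1 ± 3.38 in CSS mice against 18.4 ± 2.85 in controls (SD, 6 and 4 mice), a log2 difference of -0.39 (SE 0.13, limma adjusted p = 0.9997, exact permutation p = 0.0286). It was below 0 in each subregion, by -0.25 in CA1, -0.50 in CA3, -0.35 in MC, -0.51 in SS and -0.31 in CP. Vip was above its negative probe in 31 of the 74 AOIs of hippocampus and cortex, so these values lie mostly within background.

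The p16 difference was also compared between the 2 groups of mice. No member was called, nor was any gene (0%, with 663 at an unadjusted limma p under 0.05 and none called by edgeR). Vip was lower in p16 high AOIs by 0.47 on average in CSS mice and higher by 0.36 in controls (difference -0.83, SE 0.30, limma adjusted p = 0.998, exact permutation p = 0.0524). For Tac1 the mean differences were -0.51 in CSS mice and 0.12 in controls (-0.63, SE 0.22, adjusted p = 0.998), and for Sst 0.16 and -0.58 (0.73, SE 0.32, adjusted p = 0.998).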

How the data were processed

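The deposited table holds a signal for 19962 genes and 1 negative probe in 90 AOIs. Per the values, the authors scaled each AOI to a median signal of 22.1. Sections of 5 µm were cut from formalin-fixed, paraffin-embedded tissue, per the labels' protocols. The submitters' processing notes name the genome build mm10. Tools for the reads: not given in the sources used here. Each value is a whole count times a factor for its AOI: in every AOI 99.98% or more of the values were whole to a tolerance of 0.01, and the rest were rounded. The median recovered count per gene was 6 to 82.

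The members and lists were chosen with earlier results of these data known. The replicate was the mouse. log2(signal + 1) was averaged to 1 value per mouse and side and tested 2-sided in a limma 3.58.1 model of the whole table (R 4.3.3, lmFit and eBayes with a trend), with the mouse as a block within mice. For CSS against control, AOIs were centred within subregion and p16 label. Every adjusted p is Benjamini-Hochberg over all genes tested, from limma unless edgeR 4.0.16 (quasi-likelihood, recovered counts summed per mouse and side) is named, and a gene was called at an adjusted p under 0.05. Fold changes on this scale understate those of low signals. Exact p-values are 2-sided and unadjusted. The fits were tested on simulated data.

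The pairing comes from the mouse number in the labels; deviations of paired AOIs had a median correlation of 0.082 over 34 pairs, 12 of them above 0.1. Marker lists hold 5 to 16 genes, and up to 4 members of a list by smallest p could be named. For likeness, the 3 genes with the highest r among 9981 of above-median signal were listed. Promoter sequences are from RefSeq on GRCm38.p6.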

Additional observations from a re-analysis of the deposited data

Results flagged for a closer look

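In 6 of 90 groups of mice examined, the value of 1 control mouse lay far from those of the other 3. Chance alone gives about 5% of groups, so this count lies near chance and the values are listed only as a description. Crh in MC was 36.6 in mouse 1151, with the next control at 23.0, and Pdyn in MC was 34.9 in the same mouse, with the next at 19.4. Crh in SS was lowest in mouse 1151, at 10.7 with the next at 18.7, so that this mouse was the highest control in one cortical area and the lowest in the other. Cck in SS was 116 in mouse 1175, with the next control at 191. Pdyn in CA3 was 13.2 in mouse 1182, with the next at 18.0. Vip in CP was 24.8 in mouse 1182, with the next at 9.15. Of these values, Crh at 10.7, Pdyn at 13.2 and Vip at 9.15 lie within or below the negative probe range of 10.8 to 18.1.

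In SS the p16 difference of Npy had opposite signs in the 2 groups of mice. It was -0.44 on average in 5 CSS mice (-0.54 to -0.15) and 0.61 in 4 control mice (0.29 to 0.98), on the log2 scale. The difference of -1.04 had an exact permutation p of 0.00794, the smallest that 5 against 4 mice allow, and 0.429 after Benjamini-Hochberg adjustment over the 54 such differences of the 9 members.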

How the results depend on the processing

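No member changed sign in a called comparison under any setting tried: another pseudocount, a filter to genes above the median, quantile, 75th percentile and negative probe scaling, edgeR on recovered counts, no replicate block, matched p16 labels, no centring, a random mouse effect and leaving out each mouse. Between CA3 and CA1, 2 members were called with each of quantile, 75th percentile and negative probe scaling and with edgeR, against 1 as deposited. Those settings called 3193, 3967, 4488 and 4466 of the 19962 genes, against 3535 as deposited. Between hippocampus and cortex, 8 were called with the 75th percentile and with edgeR, against 5. Of the 19962 genes, 16200 and 14768 were called there, against 10194 as deposited, so the count of members rose with that of all genes. For p16 over hippocampus and cortex, 1 was called with the filter, negative probe scaling and edgeR, against 0. For p16 in CA1, 1 was called with quantile normalization and edgeR, and for p16 in CA3, 1 with negative probe scaling and 2 with edgeR, against 0 in both. The causes were not tested.

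Leaving out each mouse gave 1 member called between CA3 and CA1 each time, 5 to 6 between hippocampus and cortex, 6 to 7 in CP, 0 to 1 for p16 in CA1 (1 without mouse 1182), 0 to 3 for p16 in CA3 (3 without mouse 1152) and 0 elsewhere. Without the mouse as a block, 1 member was called between CA3 and CA1, 5 between hippocampus and cortex, 6 in CP and 0 elsewhere.

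Counts over all genes moved more. Between hippocampus and cortex, 10194 genes were called as deposited, 5748 with quantile normalization and 16200 with the 75th percentile. For p16 over hippocampus and cortex it was 77 as deposited, 0 with quantile or 75th percentile scaling or no block, 1 with the random mouse effect, 129 with a pseudocount of 10, 268 with the filter, 151 with edgeR and 1288 with negative probe scaling. For p16 in CA1 it was 18, against 0 with no block, 9, 10, 86, 141, 103 and 637 with quantile, 75th percentile, pseudocount 10, filter, edgeR and negative probe. For p16 in CA3 it was 0, against 318 with negative probe scaling and 55 with edgeR. Between MC and SS it was 0, against up to 14, and for CSS 0, against up to 9. The share of called genes that were higher in CA3 than in CA1 was 28.5% as deposited, 48.9% with quantile, 63.7% with 75th percentile and 13.5% with negative probe scaling, and for CP 51.2% as deposited and 66.4% with negative probe scaling. Signals near the negative probe (Vip, Crh, Pdyn, and Npy in CP) limit what could be seen.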
